A study of Arabidopsis thaliana with 12 samples.

Results

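Among 3439 probes on arrays hybridised with Arabidopsis thaliana RNA, 5 probes were examined that each name exactly 1 of 5 genes for nucleic-acid binding proteins: AT4G09040, AT2G30100, AT2G47680, AT1G03810 and AT2G36480. They belong to the 692 probes whose platform annotation gives 1 gene, and 870 further probes name several genes and 1877 none. The 5 genes were picked because their levels differed strongly between the groups compared here, so that difference is described for them and not tested. The treated group had 6 arrays of wild-type plants of the Landsberg ecotype that received 500 µM bromoxynil, a nitrile herbicide and an inhibitor of photosystem II. The control group had 6 arrays of the same genotype and ecotype that received water. All plants had spent 12 h in the dark and were then lit for 30 min. The comparison asks how transcripts of treated and water plants differ shortly after return to light. The labels give no plant age and no tissue, so the tissue was not checked against markers. They do not say that the arrays of a group came from separate plants, and the spread between arrays may therefore be technical.

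Proteins that bind RNA or single-stranded DNA act at every step between a gene and its protein. In plant chloroplasts and mitochondria, which carry their own genes, many such proteins are encoded in the nucleus and imported, and they edit, splice, trim and stabilise organelle transcripts. Proteins with RNA recognition motifs (RRMs) bind short stretches of single-stranded RNA, and pentatricopeptide repeat (PPR) proteins read RNA base by base along a chain of helical repeats. RNA helicases use ATP to unwind RNA, and OB-fold proteins hold single-stranded nucleic acids in a small barrel of beta strands.

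Of the 5 genes, 3 had higher levels with bromoxynil and 2 had lower levels. The protein families named here are background knowledge and do not come from the platform annotation. AT4G09040 is an RRM protein, AT2G30100 a PPR protein and AT2G47680 a helicase with a CCCH-type zinc finger, and these were the higher ones. AT1G03810, an OB-fold nucleic-acid binding protein, and AT2G36480, a protein of the ENTH/VHS family with a C2H2-type zinc finger, were lower. The 2 groups of arrays did not overlap for any of the 5. On normalised values the groups did not overlap for 15.6% of all probes in the higher direction and 20.8% in the lower direction. Since the genes were chosen by this contrast, their number is not read against those shares. In RNA from whole samples, fewer cells that use a gene and less RNA per cell cannot be told apart.

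Levels are given first as deposited, as a relative intensity on a linear scale on which the brightest feature of each array is 100. AT4G09040 had the largest difference. Its intensity ran from 1.47 over a median of 1.68 to 1.999 with bromoxynil, against 0.137, 0.218 and 0.321 with water. The lowest bromoxynil array was thus 4.58-fold above the highest water array. The group means were 1.70 ± 0.181 with bromoxynil and 0.234 ± 0.0673 with water (SD, n = 6 each), a 7.26-fold ratio. After quantile normalisation, which gives every array the same distribution of values, the level on the log2 scale averaged 0.68 ± 0.17 with bromoxynil and -2.0 ± 0.45 with water (SD, n = 6 each). The difference was 2.68 ± 0.19 (SE from limma), or 6.41-fold. Over all probes 15 had a larger increase.

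AT2G30100, the PPR gene, was the steadiest of the higher genes among treated arrays. Its deposited intensity was lowest at 2.43, had a median of 2.47 and was highest at 2.76 with bromoxynil, against 0.347, 0.522 and 0.637 with water. The treated values kept within a coefficient of variation of 4.99%, and the water values within 18.9%. Bromoxynil array 1 was the highest of its group and water array 6 the lowest of its group. On the normalised log2 scale the means were 1.40 ± 0.11 with bromoxynil and -0.75 ± 0.31 with water (SD, n = 6 each), a difference of 2.16 ± 0.13 (SE) or 4.47-fold. A larger increase was measured for 55 probes.

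AT2G47680, the helicase gene, was dim in water plants and varied most there. Its deposited intensity was 0.863 at the lowest, 1.02 at the median and 1.16 at the highest with bromoxynil, against 0.108, 0.209 and 0.331 with water. Water array 3 was the lowest and water array 5 the highest, and both stayed below every treated array, by at least 2.61-fold. The normalised log2 level averaged -0.20 ± 0.13 with bromoxynil and -2.22 ± 0.72 with water (SD, n = 6 each). The difference was 2.02 ± 0.29 (SE), or 4.06-fold, and 81 probes had a larger one.

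**Figure D1:**
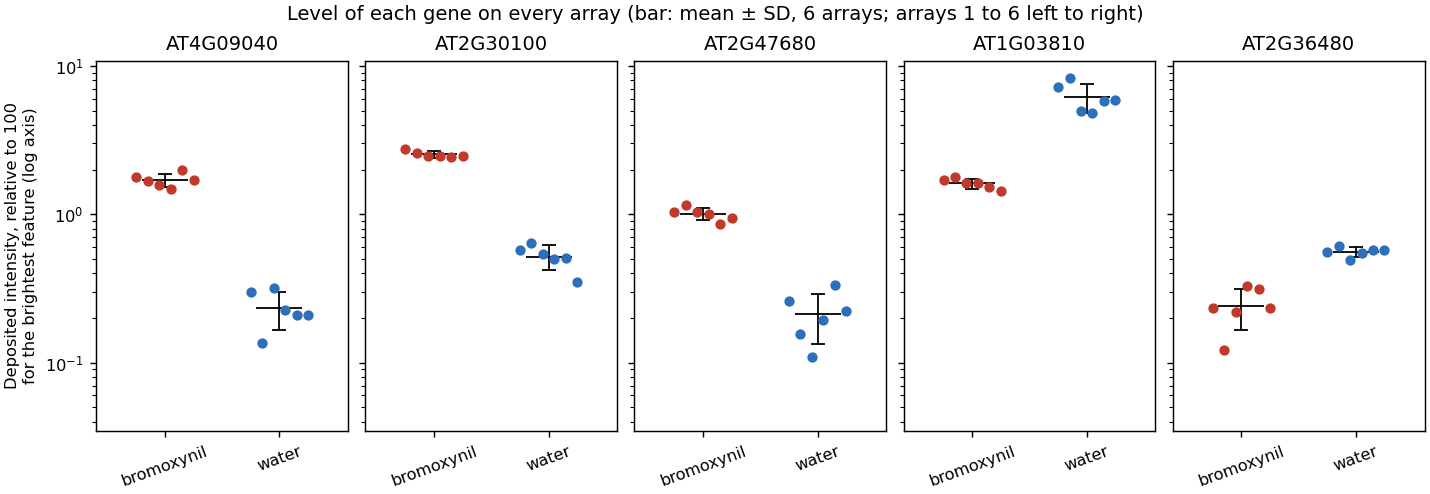
Deposited intensity (log axis, relative to 100 for the brightest feature) of the 5 genes on each of 6 bromoxynil and 6 water arrays, arrays 1 to 6 from left to right within a group, with the mean and SD as bars. AT4G09040, AT2G30100 and AT2G47680 sit higher with bromoxynil, AT1G03810 and AT2G36480 sit lower, and the groups do not overlap for any of the 5.

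AT1G03810, the OB-fold gene, showed the lower direction from a high level. Its deposited intensity was 1.44, 1.62 and 1.78 (lowest, median and highest) with bromoxynil, against 4.84, 5.84 and 8.30 with water. Water arrays 1 and 2, at 7.155 and 8.296, stood above the other four, which lay between 4.842 and 5.911. With bromoxynil, arrays 1 and 2 were also the highest of their group, at 1.712 and 1.779. The means were 1.61 ± 0.125 with bromoxynil and 6.15 ± 1.34 with water (SD, n = 6 each), a 3.81-fold ratio. The normalised log2 levels averaged 0.61 ± 0.10 with bromoxynil and 2.48 ± 0.28 with water, a difference of -1.86 ± 0.12 (SE), and 69 probes had a larger decrease.

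AT2G36480 had the smallest difference of the 5. The ENTH/VHS fold occurs in membrane trafficking proteins and also in the domain by which yeast factors for mRNA end processing bind RNA polymerase II. Its deposited intensity was 0.121, 0.232 and 0.326 (lowest, median and highest) with bromoxynil, against 0.489, 0.561 and 0.611 with water. The highest treated array, number 4, and the lowest water array, number 3, were 1.5-fold apart. On the normalised log2 scale the means were -2.23 ± 0.42 with bromoxynil and -0.63 ± 0.14 with water (SD, n = 6 each), a difference of -1.60 ± 0.18 (SE). A larger decrease was measured for 114 probes.

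**Figure D2:**
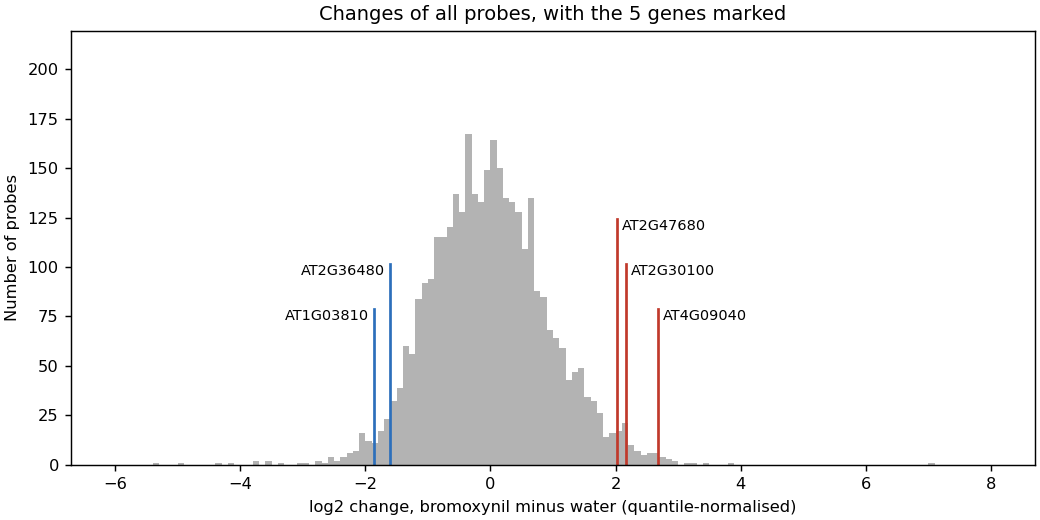
Number of probes by log2 change (bromoxynil minus water, quantile-normalised values) over all 3439 probes, with lines at the 5 genes. The 3 higher genes lie between 2.02 and 2.68 and the 2 lower genes at -1.86 and -1.60, in the tails of a distribution whose median is -0.04.

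Over all probes the median log2 change was -0.04, and the 5th and 95th percentiles were -1.44 and 1.61. The limma test with Benjamini-Hochberg adjustment called 54.4% of all probes at an adjusted p under 0.05, with 24.5% higher and 29.9% lower with bromoxynil. A difference between the groups was therefore common on these arrays. Among the probes that name 1 gene, ordered by size of change, AT4G09040 was 5th, AT2G30100 15th and AT2G47680 19th of the increases. AT1G03810 was 11th and AT2G36480 19th of the decreases.

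Ranks within an array do not depend on a scaling that keeps the order of the probes. They compare how bright probes are, not how abundant transcripts are. AT4G09040 moved furthest, with a mean percentile among all probes of 91.0 ± 1.97 with bromoxynil and 19.97 ± 7.45 with water (SD, n = 6 each), a difference of 71.1 percentile points. AT2G47680 was at 73.2 ± 4.05 with bromoxynil and at 18.3 ± 9.48 with water. AT2G30100 was at 96.1 ± 0.36 with bromoxynil and at 54.2 ± 10.7 with water. These 3 probes thus lay in the upper part of the array in treated plants, and in its dim or middle part in water plants. For AT2G30100 this did not hold after values were adjusted for array position, which put it at 96.8 with bromoxynil and 81.7 with water.

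The 2 lower genes differed from each other in rank. AT2G36480 was at the percentile of 16.1 ± 4.997 with bromoxynil and of 58.6 ± 5.09 with water (SD, n = 6 each), so its probe was at the dim end in treated plants and just above the middle in water plants. With values adjusted for array position it was at 19.8 with bromoxynil and 48.0 with water, just below the middle. AT1G03810 stayed among the bright probes in both groups, at 90.3 ± 1.33 with bromoxynil and 98.3 ± 0.399 with water. Its difference of -7.97 percentile points stood beside a 3.64-fold lower level on normalised values.

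**Figure D3:**
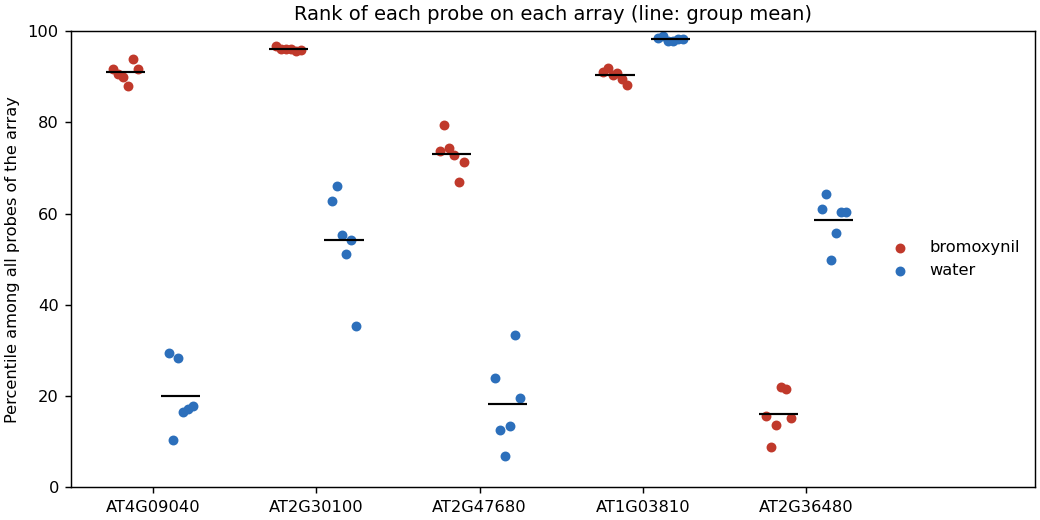
Percentile of each gene's probe among all probes of the same array, for 6 bromoxynil and 6 water arrays, with group means as lines. AT4G09040 moves furthest, with 91.0 in bromoxynil and 19.97 in water, whereas AT1G03810 stays near the top in both groups.

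The order of brightness of the 5 probes differed between the groups. With bromoxynil, AT2G30100 ranked first and AT2G36480 last of the 5 on every array. With water, AT1G03810 ranked first on every array, and AT4G09040 and AT2G47680 held the last places in either order. AT1G03810 ranked above AT2G47680 on all 12 arrays. The mean log2 level of the 3 higher genes minus that of the 2 lower genes was 1.44 ± 0.23 with bromoxynil and -2.58 ± 0.29 with water (SD, n = 6 each), a shift of 4.02. It ran from 1.12 to 1.79 on the bromoxynil arrays and from -3.08 to -2.29 on the water arrays. The direction of this shift follows from how the genes were split.

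The spread between arrays was not used to pick the genes and varied among them. The coefficient of variation of the deposited intensity was smaller with bromoxynil for 4 genes: 10.7% against 28.8% for AT4G09040, 4.99% against 18.9% for AT2G30100, 10.01% against 37.0% for AT2G47680, and 7.72% against 21.8% for AT1G03810. For AT2G36480 it was 30.7% with bromoxynil and 7.23% with water. In 4 of the genes the dimmer group had the larger relative spread. AT1G03810 was the exception, with the larger spread in the brighter water group. The pooled SD on the normalised log2 scale was 0.52 for AT2G47680 and 0.21 for AT1G03810, against a median of 0.31 over all probes. The share of all probes with a smaller spread with bromoxynil was not computed, so these counts are not read as particular to the 5 genes. Among the other nucleic-acid binding genes described below, the SD of the log2 level was also smaller with bromoxynil, except for OSB1 (0.24 against 0.23 with water).

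Array numbers were shared between the groups, and the difference within a number showed how even the change was. It ran from 2.12 to 3.34 for AT4G09040 and from 1.82 to 2.63 for AT2G30100 on the normalised log2 scale. AT2G47680 was less even, with differences between 0.97 and 3.28. Its mean difference was 2.0 over numbers 1 and 2, 2.72 over 3 and 4, and 1.33 over 5 and 6. The differences ran from -2.16 to -1.53 for AT1G03810 and from -2.50 to -1.10 for AT2G36480. All 6 numbers had the same direction for each gene, as they must when the groups do not overlap. Same-number arrays lay on the same side of their group means for 4 of 6 numbers in AT2G30100 and AT2G36480, 3 in AT4G09040 and AT1G03810, and 2 in AT2G47680.

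The log2 change of a probe on these arrays also followed its number, with a repeat every 288 numbers, which is treated here as its place on the array. Each of the 3 higher genes lay at a place where other probes were also higher with bromoxynil. The median change of the 146 other probes within 6 places was 0.63 for AT4G09040, and the corresponding medians were 0.54 for AT2G30100 (152 probes) and 0.57 for AT2G47680 (168 probes). AT4G09040 and AT2G30100 lie close together in place, so their neighbours overlap in part and their medians are not independent. The 2 lower genes lay where other probes were lower, with medians of -0.42 for AT1G03810 (157 probes) and -0.58 for AT2G36480 (158 probes). Over all places the median ran from -0.78 to 0.73, and its 25th and 75th percentiles were -0.50 and 0.41.

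After the trend over places was subtracted on each array, every one of the 5 changes was smaller and kept its direction. The log2 changes became 2.16 for AT4G09040, 1.52 for AT2G30100, 1.46 for AT2G47680, -1.41 for AT1G03810 and -1.01 for AT2G36480. The groups still did not overlap for any of the 5, as for 31.0% of all probes after this adjustment. The closest groups were those of AT2G36480, 0.43 apart on the log2 scale, and the farthest those of AT4G09040, 1.35 apart. AT4G09040 was then at a mean percentile of 84.6 with bromoxynil and 20.4 with water, and AT2G47680 at 63.1 with bromoxynil and 22.2 with water.

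Scaling moved the sizes but not the directions of these 5 changes. As deposited, bromoxynil arrays had a median 0.46 above that of water arrays on the log2 scale. Without normalisation the log2 changes were 2.91 for AT4G09040, 2.31 for AT2G30100, 2.33 for AT2G47680, -1.91 for AT1G03810 and -1.28 for AT2G36480. With each array centred on its median they were 2.44, 1.85, 1.87, -2.37 and -1.74 in the same order. Centring thus made the change of AT1G03810 larger in size than those of AT2G30100 and AT2G47680, whereas on quantile-normalised values it was smaller than both.

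**Figure D4:**
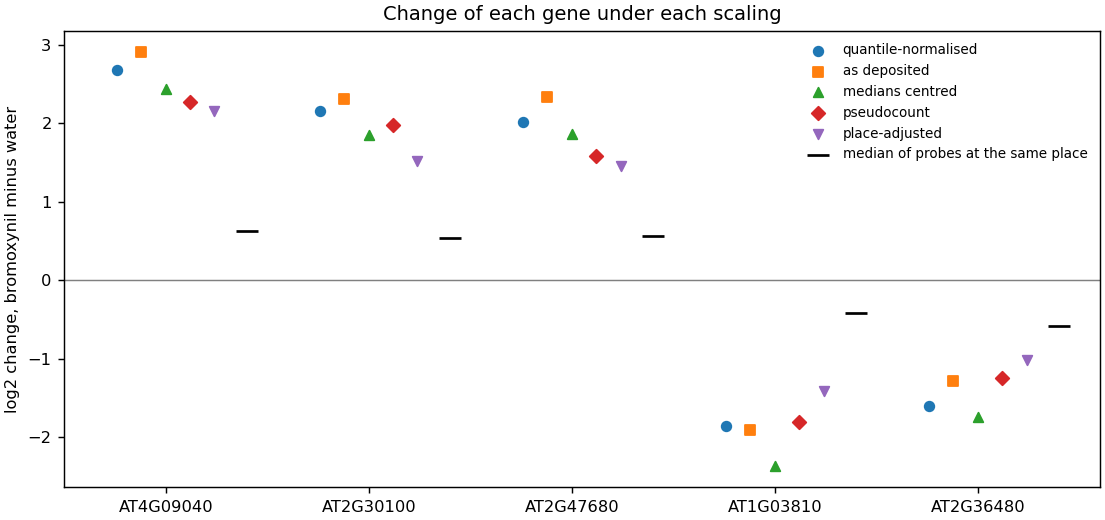
Log2 change (bromoxynil minus water) of the 5 genes under each scaling, with the median change of other probes at the same place as a black bar. The place-adjusted change is the smallest in size for all 5 genes, and no scaling turns a direction.

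Other genes of nucleic-acid binding families were taken from 8 lists of loci: plastid RRM proteins, PPR proteins, plastid splicing factors, RNA helicases, plastid ribonucleases, mRNA end-processing factors, single-stranded DNA binding and OB-fold proteins, and CCCH zinc finger proteins. The lists were set by locus from background knowledge and are not complete, so further genes that bind nucleic acids may be on the array. Of 162 listed loci besides the 5 genes, 6 (3.70%) had a probe that names 1 gene. In limma, 2 of these 6 rose, 1 fell and 3 did not pass, and their median log2 change was 0.14. Among all probes that name 1 gene, 25.9% were called higher and 25.7% lower, with a median change of 0.03.

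Both genes that rose are plastid RNA editing factors of the PPR family, like AT2G30100 in fold. CRR21 (AT5G55740), needed to edit a transcript of the chloroplast NDH complex, had deposited intensities of 1.46 to 1.69 with bromoxynil against 0.378 to 1.21 with water. The groups did not overlap, and the log2 level rose by 0.90 ± 0.24 (SE, n = 6 arrays per group; adjusted p = 0.00692, limma). After the place adjustment its change was 0.49 and did not pass (adjusted p = 0.0690, limma), nor did it with consecutive arrays averaged (adjusted p = 0.0734). AT3G22690, which acts on a transcript of the plastid RNA polymerase, ranged from 0.314 to 0.569 with bromoxynil against 0.0894 to 0.317 with water. It rose by 0.85 ± 0.32 (SE; adjusted p = 0.0426, limma), but did not pass with the array number as a replicate block (adjusted p = 0.0538), with medians centred (0.0602) or after the place adjustment (0.412, with a change of 0.31). It also missed the threshold without bromoxynil array 1, 2, 3, 4 or 6, or without water array 2, 4 or 5, with adjusted p between 0.0517 and 0.0857 (limma). Its probe is among the dimmest 25%.

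Another PPR editing factor, OTP85 (AT2G02980), had a log2 change of -0.07 ± 0.18 (SE; adjusted p = 0.755, limma). Its deposited intensity was 0.311 to 0.496 with bromoxynil against 0.230 to 0.451 with water, so the groups overlapped. AT5G19210, a DEAD-box RNA helicase, fell, with a log2 change of -1.03 ± 0.26 (SE; adjusted p = 0.00606, limma) and of -1.25 after the place adjustment (adjusted p = 0.00120). It ranged from 0.115 to 0.202 with bromoxynil against 0.130 to 0.353 with water, among the dimmest 25% of probes, and it did not pass with consecutive arrays averaged (adjusted p = 0.0775). Its direction was opposite to that of the helicase gene AT2G47680.

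AT1G01080, a plastid RRM protein like AT4G09040 in fold, had a log2 change of 0.36 ± 0.20 (SE; adjusted p = 0.144, limma), of 0.77 on the deposited values, where it passed (adjusted p = 0.00421), and of -0.28 after the place adjustment. OSB1 (AT1G47720), which binds single-stranded DNA in mitochondria, had a log2 change of -0.27 ± 0.14 (SE; adjusted p = 0.124, limma). It passed with the replicate block (adjusted p = 0.0179). After the place adjustment it passed in the other direction, at 0.36 (adjusted p = 0.0243), and on the deposited values its change was 0.17.

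**Figure D5:**
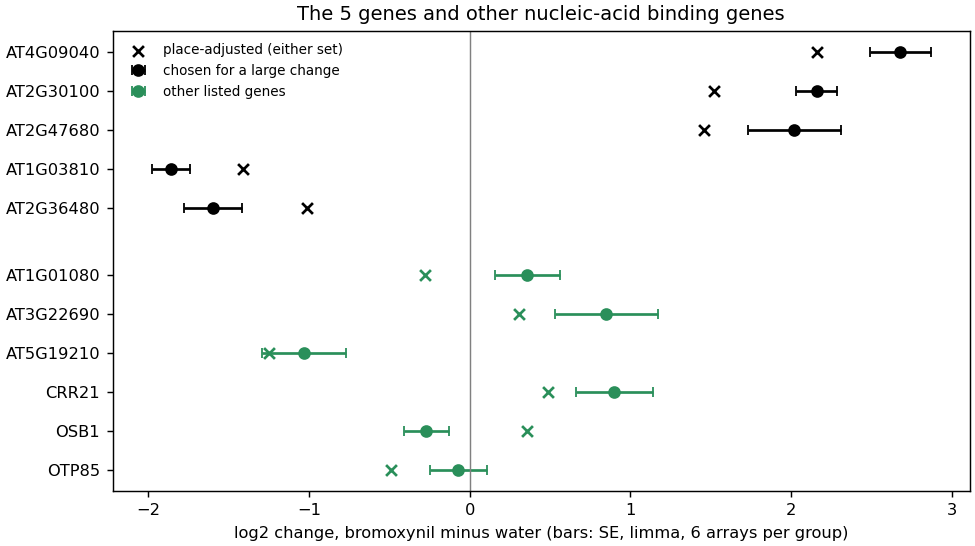
Log2 change (bromoxynil minus water) with its SE (limma, 6 arrays per group) for the 5 genes and, below them, the 6 other listed genes, with place-adjusted changes as crosses. Before the place adjustment the 6 other listed genes lie between -1.03 and 0.90, closer to 0 than each of the 5, which were chosen for a large change. The lists are not complete. After it, AT5G19210 at -1.25 lies farther from 0 than AT2G36480 at -1.01.

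The profiles most like each gene were sought among the other 691 probes that name 1 gene, as the smallest root mean square difference of log2 levels over the 12 arrays after each probe's own mean was subtracted. A profile over 2 groups is governed by the size of the change between them. The values used were not adjusted for place. Among the matches named here, AT2G22050 and AT5G55580 lay within 6 places of AT2G30100, AT5G02830 of AT2G47680 and GLDH of AT2G36480. How far a shared place makes these profiles alike was not tested. For AT4G09040 these were AT3G23940, a dihydroxyacid dehydratase (difference 0.416), AT2G30100 (0.472) and AT3G25680 (0.488). AT2G30100 was nearest to AT2G22050 (0.270), AT3G52960, a plastid peroxiredoxin (0.290), and AT5G55580 (0.319). AT2G47680 was nearest to AT1G72020 at 0.394, AT5G02830 at 0.473 and AT4G19900 at 0.498.

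Compared in the same order, the lower genes had closer matches than the higher genes. Their changes were also smaller in size. The pooled SD was smallest for AT1G03810 (0.21) and largest for AT2G47680 (0.52), so this difference is not read as a trait of the direction. AT1G03810 was nearest to AT1G15140 (0.222), AT2G04700, the catalytic subunit of ferredoxin-thioredoxin reductase (0.263), and AT1G02020 (0.295). AT2G36480 was nearest to AT3G57630 (0.183), AT2G04540, a mitochondrial ketoacyl synthase (0.228), and GLDH (AT3G47930), the last enzyme of ascorbate synthesis (0.236). The single closest match of all 5 genes was thus that of AT2G36480.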

How the data were processed

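Array intensities deposited by the authors were used: 1 value per probe on a linear scale, relative to a brightest feature of 100, for 12 arrays. Scanning, background subtraction and combination of spots are not given in the sources used here, nor is any measure of signal over background, and the number of arrays limits the precision. Zeros made up 3.14% to 4.57% of an array's values, and each was replaced by that array's smallest value above 0. Log2 values were quantile-normalised, because array medians spanned 0.56, more than the 0.1 set as the limit. All 3439 probes were fitted with limma 3.58.1 (lmFit, eBayes, two-sided, Benjamini-Hochberg, threshold 0.05) in R 4.3.3. Groups and array numbers came from the titles. The 5 genes, the lists and the alternatives were chosen with earlier results of these data known.

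Deviations from the group means correlated between same-number arrays in every pair, at 0.323 to 0.418 over all probes and so above the minimum of 0.1. On that ground, from the data, the numbers were taken to pair the arrays in an alternative fit, the replicate block. The main fit did not use the numbers, so its SEs and adjusted p-values are unpaired. What a number shares is not stated in the labels. The correlations were not computed between arrays of different numbers, so they cannot tell a shared number from something shared by several numbers. To find the repeat of probe numbers, lags of 49 to 1151 were compared by the rank autocorrelation of water arrays 1 and 2 minus water arrays 3 and 4, which peaked at 0.282. On each array the median of probes within 6 places was subtracted, then the median of each of 12 columns. The procedures were tried on simulated data, in which arrays were drawn independently and, for the limma fit, few probes were changed. In both respects these data differ, so the simulation does not check the number of calls made here. Alternatives were the deposited log2 values, centred medians, a pseudocount of 0.1, a dim filter of 25%, another variance model, a replicate block, averaged consecutive numbers, the place adjustment and each array left out.

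Named genes were the 5 chosen genes, every listed gene with a probe that names 1 gene, and the 3 most alike profiles per gene. Probes were named from GEO's platform annotation. Their sequences were not checked, so a gene's value means that of its probe. Gene identifiers matched 690 of 692 probes to loci in a RefSeq table of TAIR10.1, used for names only. That table has no gene descriptions, so no list was made from them, and the family of each protein is background knowledge. Probe, promoter and protein sequences were not used here. Plots used Python 3.11.15 with matplotlib 3.10.9.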

Additional observations from a re-analysis of the deposited data

Results flagged for a closer look

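A single array stood far from the rest of its group in 2 of 24 sets of 6 arrays, and about 5% of sets would show this by chance. AT2G30100 was at a normalised log2 level of 1.62 on bromoxynil array 1, against 1.29 to 1.40 on the other bromoxynil arrays. AT1G01080 was at -1.54 on the same array, against -1.07 to -0.83 on the others.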

How the results depend on the processing

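The direction of the log2 change of each of the 5 genes was the same under all alternatives run, and without any 1 array the changes were 2.54 to 2.78 for AT4G09040, 2.05 to 2.23 for AT2G30100, 1.78 to 2.19 for AT2G47680, -1.92 to -1.78 for AT1G03810 and -1.69 to -1.46 for AT2G36480. Sizes moved by more than 1 SD after the place adjustment for all 5 (2.16, 1.52, 1.46, -1.41 and -1.01 in that order), with medians centred for AT2G30100 (1.85) and AT1G03810 (-2.37), with the pseudocount for AT4G09040 (2.27) and AT2G36480 (-1.25), and on the deposited values for AT2G36480 (-1.28). The replicate block, averaging and the dim filter leave these differences as they are by construction. The shift of higher minus lower genes was 3.47 with the pseudocount, 2.92 after the place adjustment and 3.92 to 4.08 without 1 array.

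Mean percentiles moved after the place adjustment to 84.6 for AT4G09040, 96.8 for AT2G30100 and 63.1 for AT2G47680 with bromoxynil, and to 81.7 for AT2G30100 and 48.0 for AT2G36480 with water. AT2G30100 was at 96.9 with bromoxynil when ranked among probes naming 1 gene.

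Over all probes 1872 were called, against 1629 after the place adjustment and 1230 with consecutive arrays averaged. The count was 2055 with the replicate block and 1754 to 1891 without 1 array. Of the 6 other listed genes, 2 rose and 1 fell. The number that rose was 1 with medians centred, without the dimmest 25% of probes, with the replicate block, with averaging and after the place adjustment, 3 on the deposited values, where AT1G01080 also passed, and 1 to 2 without 1 array. The number that fell was 0 without the dimmest 25%, which removes AT5G19210 and AT3G22690, 0 with averaging, 2 with the replicate block, and 1 without any 1 array. AT3G22690 did not pass in 8 of the 12 fits that left out 1 array. AT1G01080 passed without water array 2, at 0.48 (adjusted p = 0.0416, limma). Directions turned after the place adjustment for AT1G01080 (-0.28) and OSB1 (0.36), on the deposited values for OSB1 (0.17) and OTP85 (0.34), and without bromoxynil array 5 or water array 1 for OTP85, whose change without 1 array was -0.18 to 0.03. The cause of these changes was not tested.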

Other observations

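A further probe lists AT1G03810 together with 2 other genes, so it was not among the 5 and gives no value for a single gene. Its deposited intensity was 1.01 to 1.18 with bromoxynil against 0.898 to 1.72 with water, with 4 of 6 water arrays above all bromoxynil arrays. Its log2 change was -0.58 on normalised values and -0.24 after the place adjustment.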
